A study of Mus musculus with 9 samples.

Results

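The genes described here are named for the factors that start protein synthesis and lengthen the chain. Besides such factors, they include kinases, inhibitors and methyltransferases that act on them, so counts over the genes are not counts of factors alone. They were measured in whole ear skin of female C57BL/6 mice aged 7 to 9 weeks. Members were the genes whose symbol in the platform annotation starts with Eif1 to Eif6, Eef1 or Eef2, on rows that carry exactly 1 symbol. That gave 61 genes from 71 probe sets, of 19938 genes tested, and the brightest probe set stood for each gene. Anisomycin ears had received anisomycin once daily for 5 consecutive days, as 10 µl of a 2 mg/ml solution in ethanol on each side of the ear. Imiquimod ears had received 10 mg of a 5% imiquimod cream once daily for 5 days. The labels do not say what the vehicle ears received or for how long, so neither the solvents nor the duration can be set apart from the drugs. There were 3 arrays of each kind, and nothing in the labels besides n = 3 says that these were separate animals, so p-values may measure only technical spread.

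Initiation factors bring the initiator tRNA and the small ribosomal subunit to the capped end of an mRNA, let it scan to the start codon and join the large subunit there. Elongation factors then deliver each aminoacyl-tRNA and move the ribosome along. Cells set the rate mainly through eIF2, whose phosphorylation by stress kinases blocks its recharging by eIF2B, and through the 4E binding proteins, which hold back the cap binding factor eIF4E. Anisomycin is an antibiotic that blocks the ribosome's peptide bond formation and activates stress kinases, while imiquimod activates Toll-like receptor 7. In skin, protein synthesis rises in dividing and wound-edge keratinocytes. Arrays measure mRNA and say nothing of phosphorylation or of protein synthesis itself. In whole ears, a change in the number of cells of a type and a change in RNA per cell cannot be told apart.

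The genes' means over the 9 arrays ran from 3.05 to 13.21 with a median of 8.61, on the log2 scale of the deposited expression values. Probe sets differ in brightness for the same amount of RNA, so levels are set side by side within a gene and not between genes. At the low end was Eif2s3y, the Y-linked gene for the gamma subunit of eIF2, at 3.04 to 3.05 on every array of these female mice. All levels below are such log2 values, differences are those of group means (3 arrays each), and SE stands for the standard error from limma. A gene is called when limma's p, adjusted over all 19938 genes by the method of Benjamini and Hochberg, is under 0.05.

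With anisomycin 30 of the 61 genes rose, 8 fell and 23 were not called, beside 22.3% of all genes called higher and 23.3% called lower. The median difference over the 61 genes was 0.18, against -0.0097 over all genes. With imiquimod 32 rose, 6 fell and 23 were not called, where 20.4% of all genes were called higher and 22.4% lower, and the median difference was 0.33, against -0.026 over all genes. In either comparison 62.3% of the 61 genes were called, beside 45.6% of all genes for anisomycin and 42.7% for imiquimod. However, 55 of the 61 genes had a mean level above the median gene, while the shares over all genes include dim genes. The share called among genes of like level was not computed. With the dimmest 30% of genes left out, 76.9% of called members were higher for anisomycin, against 49.7% of all called genes. For imiquimod these shares were 84.6% and 50.2%. Without overlap between treated and vehicle arrays were 37 of the 61 genes for anisomycin, where 51.3% of all genes had none, and 42 for imiquimod, where 51.8% had none. The treatments share their vehicle arrays, so these counts are not independent of each other. Of the 61 genes, 29 were called higher with both treatments and 5 lower with both, beside 16.0% of all genes higher with both and 17.5% lower. None was called in opposite directions, but the share of all genes called so was not computed. The median of the 61 genes was 0.096 for anisomycin with centring on genes of stable rank, and 0.20 for imiquimod under cyclic loess normalization. Under cyclic loess the split became 29 higher and 14 lower for anisomycin and 30 higher and 12 lower for imiquimod.

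**Figure D1:**
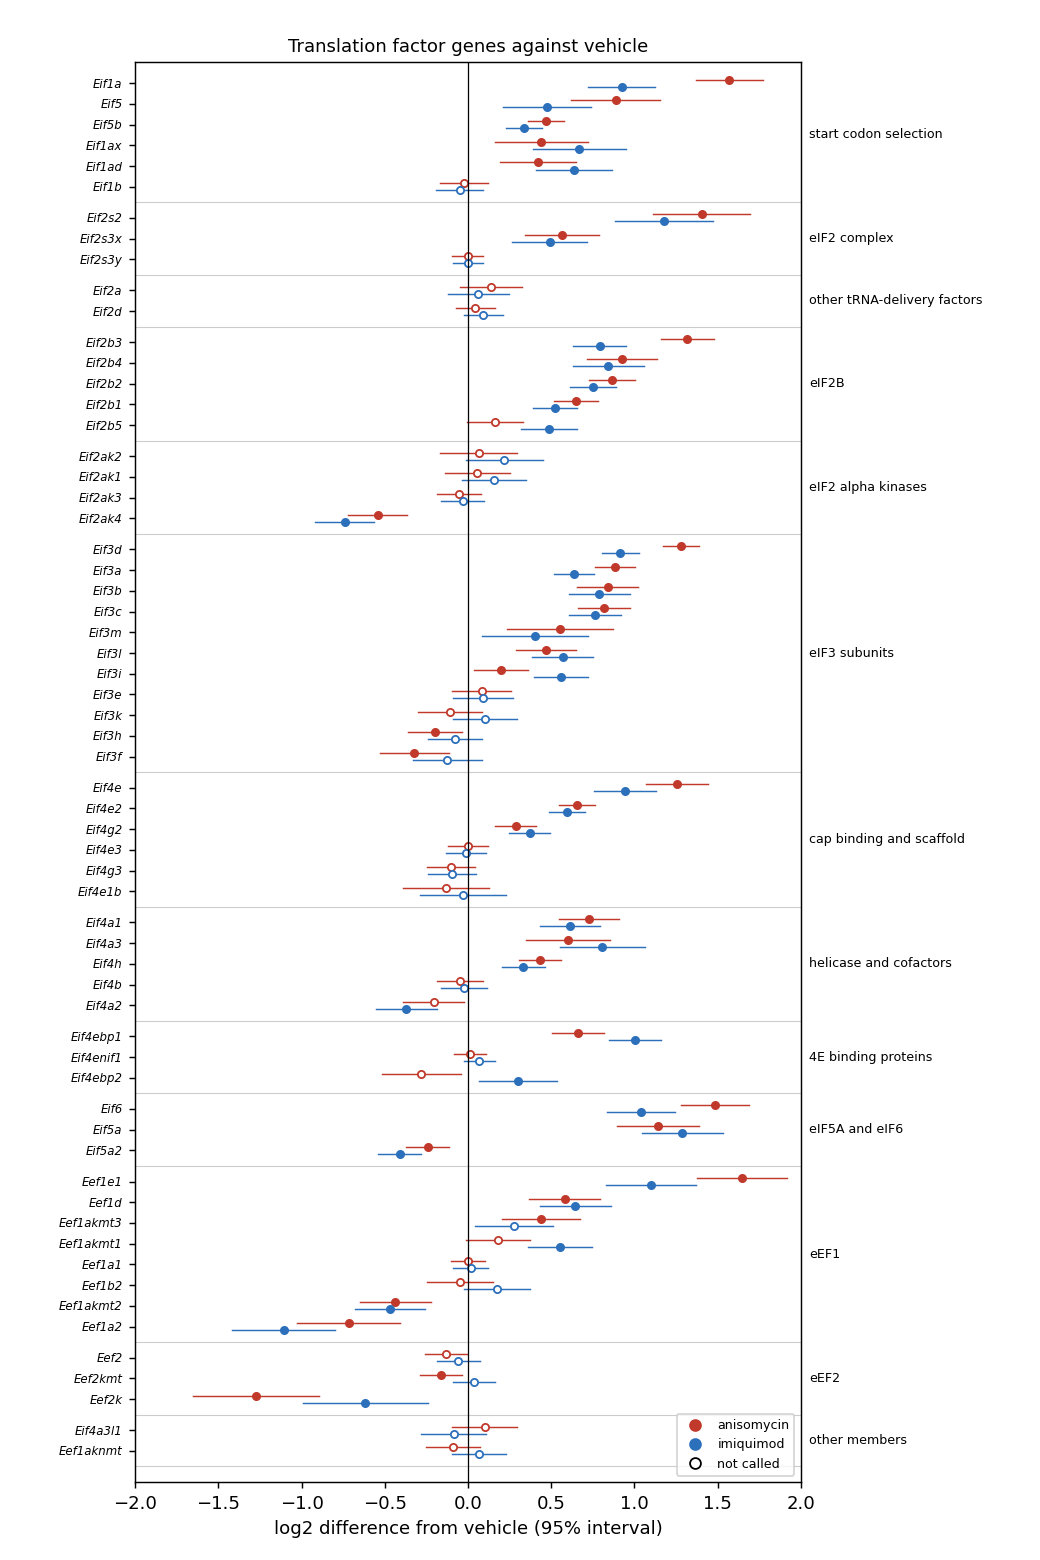
Log2 difference from vehicle (horizontal axis, with limma's 95% interval) for each of the 61 genes, grouped by role, with anisomycin in red above imiquimod in blue; filled points were called and open points were not. Most eIF2B and eIF3 points lie right of 0, and Eef2k, Eef1a2 and Eif2ak4 lie left of 0 with both treatments.

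The ear's other cell populations shifted in the same arrays, and their part in the results was not tested. All 15 skeletal muscle markers fell with both treatments, and their summed level was 12.27 to 12.49 in anisomycin ears, 12.06 to 12.70 in imiquimod ears and 13.92 to 14.57 in vehicle ears. All 9 measured adipocyte markers fell too, while all 8 neutrophil markers and all 8 measured markers of cycling cells rose with both treatments. All 4 stress keratins rose, with a median of 6.25 for anisomycin and 5.90 for imiquimod. With both treatments 6 of 7 measured monocyte and macrophage markers rose and 6 of 7 fibroblast markers fell. Keratinocyte markers had a summed level of 15.08 to 15.32 in anisomycin ears, 15.39 to 15.40 in imiquimod ears and 14.98 to 15.27 in vehicle ears. Of those 10 markers 4 rose and 3 fell with anisomycin, and 5 rose and 1 fell with imiquimod.

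Sequences at the gene starts were read from RefSeq's promoter windows (GRCm38.p6, 250 bases before to 50 after the start), which held 48 of the 61 genes. Many mRNAs of the translation machinery begin with a C and a run of pyrimidines, the terminal oligopyrimidine tract through which growth signals control their translation. A C within 5 bases of the annotated start, followed by at least 4 pyrimidines, was found for 14 of the 48 genes (29.2%), beside 22.0% of the 15563 tested genes with a window. Of those 14 genes 5 rose and 2 fell with anisomycin, with a median of 0.079, and of the 34 others 17 rose and 5 fell, with a median of 0.29. With imiquimod 6 of the 14 rose and 1 fell, and of the 34 others 18 rose and 5 fell. The scan rests on annotated starts, and the starts used in these ears were not measured. The split therefore does not show which mRNAs begin with such a tract. Of the longest tracts, those are shown of Eef1a1, which was not called, Eif3f, which fell with anisomycin, and Eif2s3x and Eif3l, which rose with both treatments. The tracts of Eef1a1, Eif3f and Eif2s3x begin before the annotated start, that of Eef1a1 by 5 bases. Each window runs from 10 bases before the start in the direction of transcription, 5′ to 3′, with the tract in capitals.
Eef1a1, chr9:78481705-78481734, minus strand: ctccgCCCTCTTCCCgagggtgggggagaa
Eif3f, chr7:108934405-108934434, plus strand: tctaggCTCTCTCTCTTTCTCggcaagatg
Eif2s3x, chrX:94212632-94212661, minus strand: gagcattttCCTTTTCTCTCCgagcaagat
Eif3l, chr15:79075213-79075242, plus strand: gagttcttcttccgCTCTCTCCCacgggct

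The E-box CACGTG, which reads the same on both strands and is bound by MYC and related factors, was in a window of 12 of the 48 genes (25%), against 9.52% of the 15563 tested genes. The windows of the 48 genes were richer in G and C, with a median of 62.0% against 57.7%. With anisomycin 5 of the 12 rose and 3 fell, and with imiquimod 5 rose and 2 fell. Of the 36 others 17 rose and 4 fell with anisomycin, and 19 rose and 4 fell with imiquimod. The difference between these groups was not tested. The element TGATGNAA, bound by ATF and C/EBP dimers, was found on either strand for 2 of 48 genes (4.17%), against 3.62% of tested genes, in Eif2s3x and Eef2k. The windows below hold the E-box in capitals, first for Eif4e, Eif4a1 and Eif3a, which rose with both treatments, and then for Eef2k and Eif5a2, which fell with both. A match describes the letters only.
Eif4e, chr3:138527192-138527221, plus strand: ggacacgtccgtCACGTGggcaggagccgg
Eif4a1, chr11:69672595-69672624, minus strand: cgatcgcctccgCACGTGtaaaggtgctgg
Eif3a, chr19:60790654-60790683, minus strand: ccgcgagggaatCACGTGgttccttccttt
Eef2k, chr7:120842788-120842817, plus strand: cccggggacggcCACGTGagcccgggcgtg
Eif5a2, chr3:28781123-28781152, plus strand: actaatccgcagCACGTGgggttgccaggg

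Of 6 genes grouped for start codon selection and subunit joining, with Eif1ad placed here by its name, 5 rose with both treatments and Eif1b was not called with either. Eif1a, an autosomal gene for the scanning factor eIF1A, was at 8.89, 8.79 and 8.70 in anisomycin ears, 8.14, 8.14 and 8.14 in imiquimod ears and 7.23, 7.04 and 7.40 in vehicle ears. Its groups did not overlap, and the difference was 1.57 (SE 0.09, adjusted p = 1.25e-06) for anisomycin and 0.92 (SE 0.09, adjusted p = 3.55e-05) for imiquimod. The 3 imiquimod values were identical, at 8.144988, and their SD of 0 lowers the pooled spread behind these SEs. Eif1a has near-identical copies in the mouse genome whose RNA its probe set may share, so its value is uncertain. The X-linked gene Eif1ax differed from vehicle by 0.44 with anisomycin and 0.67 with imiquimod, and the anisomycin call ended without anisomycin replicate 2 (adjusted p = 0.0569). The GTPase activating factor gene Eif5 was 0.89 with anisomycin and 0.47 with imiquimod above vehicle, and Eif5b, whose product joins the ribosomal subunits, 0.47 with anisomycin and 0.34 with imiquimod. The imiquimod call of Eif5 ended under cyclic loess normalization, at 0.22. Eif1ad was 0.42 with anisomycin and 0.64 with imiquimod above vehicle. Eif1b, which encodes a close relative of eIF1, was at -0.02 with anisomycin and -0.05 with imiquimod.

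The eIF2 complex carries the initiator tRNA, and eIF2B recharges it with GTP. Both measured autosomal or X-linked eIF2 genes rose with both treatments, as did 4 of the 5 eIF2B subunit genes, and Eif2b5 was called with imiquimod but not with anisomycin. Eif2s2, for the beta subunit of eIF2, was at 9.22, 9.16 and 9.08 in anisomycin ears, 8.90, 9.02 and 8.86 in imiquimod ears and 8.04, 7.43 and 7.78 in vehicle ears. Every treated array lay above every vehicle array, with differences of 1.41 (SE 0.13, adjusted p = 2.09e-05) for anisomycin and 1.18 (SE 0.13, adjusted p = 8.1e-05) for imiquimod. A second Eif2s2 probe set disagreed in size, at 8.24, 8.39 and 8.61 in anisomycin ears, 8.71, 8.84 and 8.70 in imiquimod ears and 8.28, 8.13 and 8.45 in vehicle ears. There the anisomycin and vehicle arrays overlapped. With the mean of both probe sets the differences were 0.76 for anisomycin and 0.82 for imiquimod, and both were still called. The gamma subunit gene Eif2s3x was at 10.69, 10.81 and 10.77 in anisomycin ears, 10.62, 10.74 and 10.69 in imiquimod ears and 10.37, 9.94 and 10.26 in vehicle ears, higher by 0.57 (SE 0.10, adjusted p = 0.00116) with anisomycin and 0.49 (SE 0.10, adjusted p = 0.00306) with imiquimod.

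Eif2b3 and Eif2b5 encode the gamma and epsilon subunits of eIF2B, which together hold its catalytic activity, and they differed in pattern. Eif2b3 was at 8.79, 8.72 and 8.79 in anisomycin ears, 8.23, 8.25 and 8.23 in imiquimod ears and 7.60, 7.32 and 7.41 in vehicle ears, so that its groups stood in 3 separate steps. The difference from vehicle was 1.32 (SE 0.07, adjusted p = 9.11e-07) for anisomycin and 0.79 (SE 0.07, adjusted p = 2.33e-05) for imiquimod. Eif2b5 was at 7.78, 7.85 and 7.85 in anisomycin ears, 8.18, 8.25 and 8.03 in imiquimod ears and 7.59, 7.62 and 7.79 in vehicle ears. It was 0.49 (SE 0.07, adjusted p = 0.000566) above vehicle with imiquimod, and with anisomycin the difference was 0.16 (adjusted p = 0.107), with overlapping groups. The regulatory subunit genes all rose. Eif2b1, for the alpha subunit, was at 8.23, 8.22 and 8.26 in anisomycin ears, 8.07, 8.15 and 8.12 in imiquimod ears and 7.62, 7.48 and 7.67 in vehicle ears. Eif2b2, for the beta subunit, was at 8.95, 8.90 and 8.87 in anisomycin ears, 8.77, 8.78 and 8.82 in imiquimod ears and 8.13, 7.92 and 8.08 in vehicle ears. Eif2b4, for the delta subunit, was at 8.06, 8.15 and 8.36 in anisomycin ears, 8.12, 8.16 and 8.05 in imiquimod ears and 7.13, 7.24 and 7.43 in vehicle ears. For these 3 genes no treated array overlapped a vehicle array, and the differences ran from 0.65 to 0.93 with anisomycin and from 0.52 to 0.84 with imiquimod.

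**Figure D2:**
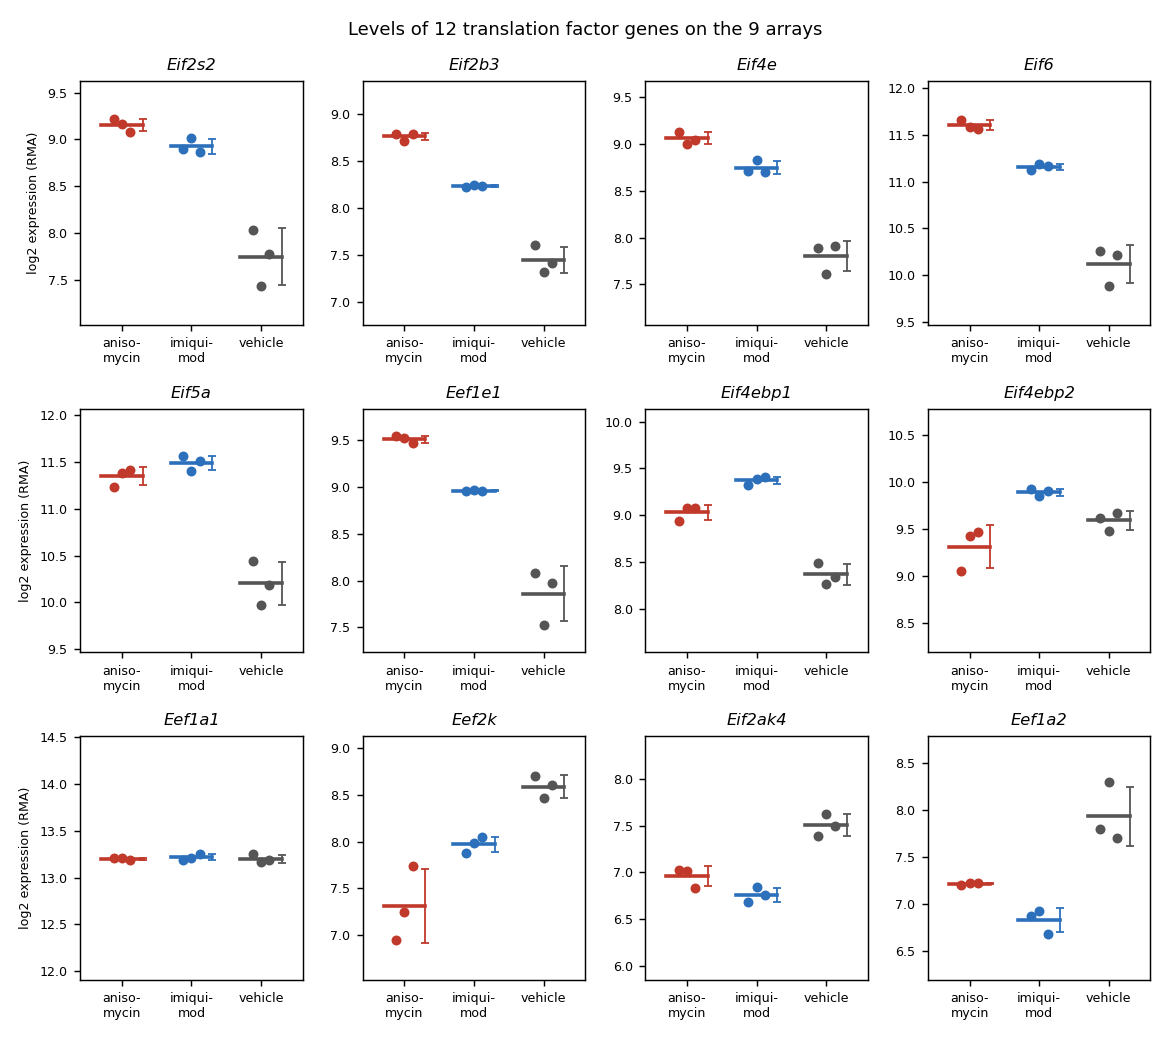
Log2 expression of 12 genes on each array (points), with group means (bars) and SDs (whiskers, n = 3), for anisomycin, imiquimod and vehicle from left to right; panels have their own ranges. Eif2b3, Eif6 and Eef1e1 stand in 3 separate steps, Eef1a1 is level across groups, and Eef2k is most spread in anisomycin ears.

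Next come the kinases that phosphorylate eIF2 alpha. Of 4 genes, 3 were not called with either treatment and 1 fell with both. Eif2ak4 encodes GCN2, which senses uncharged tRNA and stalled ribosomes, and was at 7.03, 7.02 and 6.84 in anisomycin ears, 6.69, 6.84 and 6.76 in imiquimod ears and 7.39, 7.62 and 7.50 in vehicle ears. All treated arrays lay below all vehicle arrays, with differences of -0.54 (SE 0.08, adjusted p = 0.000367) for anisomycin and -0.74 (SE 0.08, adjusted p = 6.78e-05) for imiquimod. Eif2ak3, for the endoplasmic reticulum stress kinase PERK, was at 7.54, 7.71 and 7.67 in anisomycin ears, 7.59, 7.70 and 7.68 in imiquimod ears and 7.68, 7.72 and 7.68 in vehicle ears. The gene of the heme-regulated kinase, Eif2ak1, was at 7.84, 7.73 and 7.92 in anisomycin ears, 7.86, 7.90 and 8.04 in imiquimod ears and 7.86, 7.61 and 7.86 in vehicle ears. Eif2ak2, for the kinase PKR that binds double-stranded RNA, was at 6.10, 6.16 and 6.14 in anisomycin ears, 6.10, 6.23 and 6.54 in imiquimod ears and 6.14, 5.98 and 6.10 in vehicle ears. The groups of these 3 kinase genes overlapped, and their differences from vehicle ran from -0.05 to 0.22 over both treatments. The genes of eIF2A and eIF2D, which can deliver tRNA without eIF2, differed from vehicle by 0.14 with anisomycin and 0.06 with imiquimod for Eif2a, and by 0.04 with anisomycin and 0.09 with imiquimod for Eif2d, and were not called.

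The eIF3 complex, the largest initiation factor, bridges the small subunit and the mRNA. Of 11 measured subunit genes 7 rose with both treatments, while Eif3e and Eif3k were called with neither and Eif3f and Eif3h were called lower with anisomycin. The genes for the scaffold subunits, Eif3a, Eif3b and Eif3c, rose by 0.88, 0.84 and 0.82 with anisomycin and by 0.64, 0.79 and 0.76 with imiquimod. Eif3d, whose product can itself bind the cap of some mRNAs, changed most of the 11 genes, at 10.37, 10.28 and 10.29 in anisomycin ears, 9.93, 9.96 and 9.94 in imiquimod ears and 9.04, 8.98 and 9.08 in vehicle ears. Its differences were 1.28 (SE 0.05, adjusted p = 1.27e-07) for anisomycin and 0.91 (SE 0.05, adjusted p = 1.41e-06) for imiquimod. Eif3l was 0.47 with anisomycin and 0.57 with imiquimod above vehicle, and Eif3m 0.55 with anisomycin and 0.40 with imiquimod. The imiquimod call of Eif3m ended in 6 of the 9 fits that leave out 1 array, at an adjusted p of up to 0.152. Among other settings, it also ended with the mean of the gene's probe sets and with stable-rank centring. A second Eif3m probe set gave 0.40 with anisomycin and 0.22 with imiquimod, and there imiquimod and vehicle arrays overlapped.

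Eif3f and Eif3h encode the subunits with an MPN domain, and neither rose with either treatment. Eif3f was at 9.70, 9.94 and 10.05 in anisomycin ears, 10.06, 10.09 and 10.12 in imiquimod ears and 10.28, 10.09 and 10.28 in vehicle ears. All anisomycin arrays lay below all vehicle arrays, with a difference of -0.32 (SE 0.09, adjusted p = 0.0166), a call that ended without vehicle replicate 1 or 3 (adjusted p up to 0.0577). With imiquimod the difference was -0.12 for Eif3f and -0.08 for Eif3h, and neither was called. Eif3h differed from vehicle by -0.20 with anisomycin (adjusted p = 0.047), with overlapping groups, and the call ended in 7 of the 9 fits that leave out 1 array (adjusted p up to 0.143). Eif3i, for a beta-propeller subunit, was 0.20 with anisomycin (adjusted p = 0.0478, up to 0.15 in the 8 of 9 such fits that ended its call) and 0.56 (SE 0.07, adjusted p = 0.000195) with imiquimod. Eif3e was at 0.08 with anisomycin and 0.09 with imiquimod, and Eif3k at -0.11 with anisomycin and 0.10 with imiquimod.

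**Figure D3:**
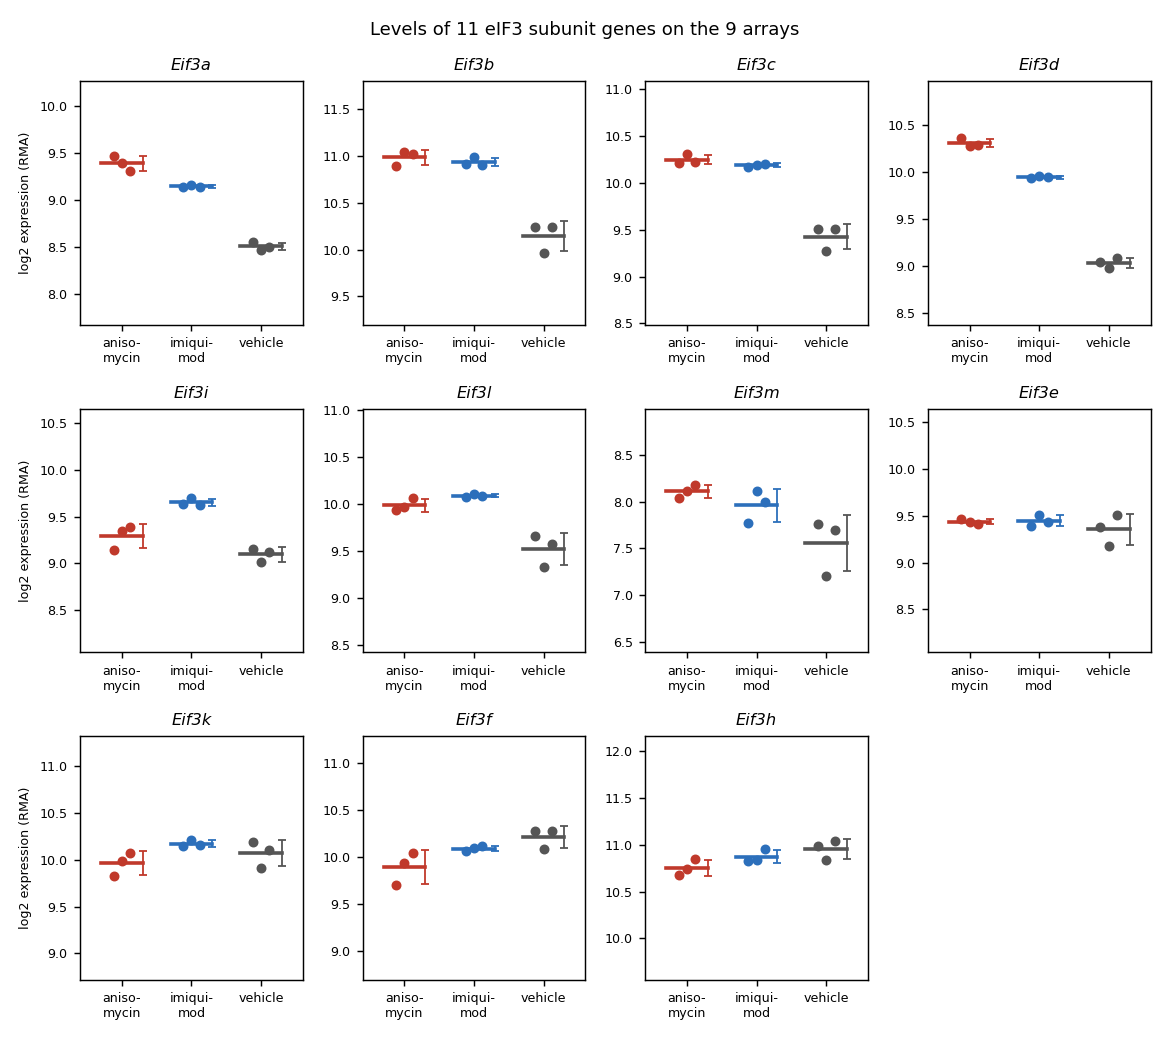
Log2 expression of 11 eIF3 subunit genes on each array (points), with group means (bars) and SDs (whiskers, n = 3), for anisomycin, imiquimod and vehicle from left to right; panels have their own ranges. Vehicle points lie below all treated points for Eif3a, Eif3b, Eif3c, Eif3d, Eif3l and Eif3m, and overlap them for Eif3e, Eif3k and Eif3h.

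At the cap, 3 of 6 genes rose with both treatments and 3 were called with neither. Eif4e encodes the cap binding protein and was at 9.13, 9.00 and 9.04 in anisomycin ears, 8.71, 8.82 and 8.70 in imiquimod ears and 7.89, 7.61 and 7.91 in vehicle ears. The groups did not overlap, with differences of 1.26 (SE 0.08, adjusted p = 2.88e-06) for anisomycin and 0.94 (SE 0.08, adjusted p = 2.12e-05) for imiquimod. Near-identical gene copies could share signal with the probe sets of Eif2s2, Eif4e and Eif5a, whose probe sets differed in size of change. The other 2 probe sets of Eif4e were also higher than in vehicle ears, by 0.52 and 0.86 with anisomycin and 0.34 and 0.36 with imiquimod. Eif4e2, whose product binds caps but does not recruit the scaffold, was at 8.97, 8.95 and 8.97 in anisomycin ears, 8.94, 8.89 and 8.89 in imiquimod ears and 8.32, 8.25 and 8.36 in vehicle ears. It was 0.65 (SE 0.05, adjusted p = 5.56e-06) above vehicle with anisomycin and 0.60 (SE 0.05, adjusted p = 1.4e-05) with imiquimod. Eif4e3, another relative, was at 7.56, 7.56 and 7.56 in anisomycin ears, 7.54, 7.53 and 7.58 in imiquimod ears and 7.47, 7.55 and 7.64 in vehicle ears, with overlapping groups. The germline relative Eif4e1b had differences of -0.13 with anisomycin and -0.03 with imiquimod, and not called.

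The scaffold eIF4G holds eIF4E and the helicase eIF4A together. Eif4g2 encodes a scaffold relative that lacks the eIF4E site and was at 11.06, 11.09 and 11.04 in anisomycin ears, 11.18, 11.20 and 11.06 in imiquimod ears and 10.81, 10.71 and 10.80 in vehicle ears. It was 0.29 above vehicle with anisomycin and 0.37 with imiquimod, and these calls ended under cyclic loess normalization, at 0.0040 with anisomycin and 0.050 with imiquimod. Eif4g3, for the second full scaffold, was at 8.98, 8.98 and 8.90 in anisomycin ears, 8.94, 8.98 and 8.96 in imiquimod ears and 8.96, 9.19 and 9.01 in vehicle ears, and its groups overlapped. The helicase genes differed from each other. Eif4a1 was at 12.24, 12.19 and 12.10 in anisomycin ears, 12.05, 12.07 and 12.07 in imiquimod ears and 11.58, 11.26 and 11.51 in vehicle ears, higher by 0.73 (SE 0.08, adjusted p = 6.28e-05) with anisomycin and 0.61 (SE 0.08, adjusted p = 0.000228) with imiquimod. Its close relative Eif4a2 was at 9.13, 8.99 and 8.88 in anisomycin ears, 8.92, 8.86 and 8.73 in imiquimod ears and 9.10, 9.22 and 9.30 in vehicle ears, with a difference of -0.21 for anisomycin (adjusted p = 0.0669), not called, and -0.37 for imiquimod (adjusted p = 0.00498). Eif4a3, for the helicase of the exon junction complex, was 0.60 with anisomycin and 0.81 with imiquimod above vehicle. Of the helicase cofactors, Eif4h was 0.43 with anisomycin and 0.33 with imiquimod above vehicle, its imiquimod call ending under cyclic loess at 0.098, while Eif4b was at -0.05 with anisomycin and -0.02 with imiquimod and not called.

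The 4E binding proteins compete with eIF4G for eIF4E. Eif4ebp1 rose with both treatments and more so with imiquimod, whereas Eif4ebp2 lay apart between them. Eif4ebp1 was at 8.93, 9.08 and 9.08 in anisomycin ears, 9.33, 9.38 and 9.41 in imiquimod ears and 8.49, 8.27 and 8.34 in vehicle ears. Differences from vehicle were 0.66 (SE 0.07, adjusted p = 4.57e-05) for anisomycin and 1.00 (SE 0.07, adjusted p = 5.95e-06) for imiquimod. Eif4ebp2 was at 9.05, 9.42 and 9.47 in anisomycin ears, 9.92, 9.85 and 9.90 in imiquimod ears and 9.62, 9.48 and 9.67 in vehicle ears. Anisomycin arrays were the lowest and imiquimod arrays the highest, with differences of -0.28 (SE 0.10, adjusted p = 0.0548) for anisomycin and 0.30 (SE 0.10, adjusted p = 0.0438) for imiquimod. The imiquimod call was marginal and ended in 7 of the 9 fits that leave out 1 array, at an adjusted p of up to 0.133. Under cyclic loess normalization the Eif4ebp2 difference was -0.47 for anisomycin, called, and 0.08 for imiquimod, not called. Eif4enif1, whose product carries eIF4E to the nucleus and to RNA granules, was at 0.01 with anisomycin and 0.07 with imiquimod and not called.

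The genes of eIF6 and eIF5A were among the most changed. Eif6, whose product keeps the large ribosomal subunit from joining too early and also acts in its assembly, was at 11.66, 11.59 and 11.57 in anisomycin ears, 11.12, 11.18 and 11.17 in imiquimod ears and 10.25, 9.88 and 10.22 in vehicle ears. Its groups formed 3 separate steps, with differences of 1.49 (SE 0.09, adjusted p = 1.99e-06) for anisomycin and 1.04 (SE 0.09, adjusted p = 2.13e-05) for imiquimod. Eif5a, for the hypusine-bearing factor that helps stalled ribosomes form peptide bonds, was at 11.24, 11.38 and 11.42 in anisomycin ears, 11.56, 11.41 and 11.50 in imiquimod ears and 10.44, 9.98 and 10.19 in vehicle ears. It was 1.14 (SE 0.11, adjusted p = 2.53e-05) above vehicle with anisomycin and 1.29 (SE 0.11, adjusted p = 1.75e-05) with imiquimod, and its second probe set gave 0.47 with anisomycin and 0.59 with imiquimod. Its relative Eif5a2 moved the other way, at 6.60, 6.45 and 6.51 in anisomycin ears, 6.39, 6.40 and 6.28 in imiquimod ears and 6.72, 6.79 and 6.79 in vehicle ears. The difference was -0.24 (SE 0.06, adjusted p = 0.00645) for anisomycin and -0.41 (SE 0.06, adjusted p = 0.000345) for imiquimod, the anisomycin call ending under cyclic loess normalization at -0.14.

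Of the elongation factor genes, Eef1a1 and Eef2 were not called with either treatment, though settings changed this. Eef1a1 encodes the main carrier of aminoacyl-tRNA and was at 13.21, 13.21 and 13.18 in anisomycin ears, 13.19, 13.21 and 13.25 in imiquimod ears and 13.25, 13.17 and 13.19 in vehicle ears. Its 95% intervals were -0.10 to 0.10 for anisomycin and -0.09 to 0.12 for imiquimod. The values lie near the maximum of all arrays, 13.97. Cyclic loess normalization gave -0.40 with anisomycin and -0.44 with imiquimod, both called. Eef2, for the translocase, was at 12.41, 12.50 and 12.54 in anisomycin ears, 12.55, 12.55 and 12.57 in imiquimod ears and 12.66, 12.53 and 12.65 in vehicle ears, with overlapping groups and differences of -0.13 with anisomycin (adjusted p = 0.0813) and -0.06 with imiquimod (adjusted p = 0.467). The 95% intervals were -0.26 to -0.007 for anisomycin and -0.18 to 0.07 for imiquimod. With anisomycin Eef2 was called lower in 4 of 18 alternatives, at -0.21 with stable-rank centring (adjusted p = 0.00607), -0.50 with cyclic loess, -0.14 with array weights and -0.17 without vehicle replicate 2. With imiquimod it was called lower under cyclic loess, at -0.48. Eef1b2, for an exchange factor of eEF1A, was at -0.05 with anisomycin and 0.17 with imiquimod and not called, while the exchange factor gene Eef1d was 0.58 with anisomycin and 0.64 with imiquimod above vehicle.

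Eef1a2 and Eef2k fell with both treatments. Eef1a2 encodes the form of eEF1A that replaces the main one in adult muscle and neurons, and was at 7.21, 7.22 and 7.22 in anisomycin ears, 6.87, 6.92 and 6.68 in imiquimod ears and 7.80, 8.30 and 7.71 in vehicle ears. Treated arrays lay below vehicle arrays, with differences of -0.72 (SE 0.14, adjusted p = 0.00186) for anisomycin and -1.11 (SE 0.14, adjusted p = 0.000154) for imiquimod. The 15 muscle markers fell in the same arrays, with a median of -1.86 for anisomycin and -1.85 for imiquimod, and their part in the Eef1a2 difference was not tested. Of 5 measured nerve and Schwann cell markers 2 fell and 1 rose with anisomycin, and 3 fell with imiquimod.

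Eef2k encodes the calcium-dependent kinase that phosphorylates eEF2 and slows elongation, and was at 6.95, 7.25 and 7.74 in anisomycin ears, 7.88, 7.98 and 8.05 in imiquimod ears and 8.70, 8.46 and 8.60 in vehicle ears. No treated array reached the vehicle arrays, and the anisomycin arrays were the most spread. The difference was -1.27 (SE 0.17, adjusted p = 0.000185) for anisomycin and -0.62 (SE 0.17, adjusted p = 0.014) for imiquimod, and the imiquimod call ended without imiquimod replicate 1 (adjusted p = 0.0521). A second Eef2k probe set gave -1.60 with anisomycin and -0.96 with imiquimod. Eef1e1, named as an elongation factor though its product is a scaffold of the multi-synthetase complex, had the largest rise of the 61 genes with anisomycin, at 9.54, 9.52 and 9.47 in anisomycin ears, 8.96, 8.97 and 8.96 in imiquimod ears and 8.08, 7.53 and 7.98 in vehicle ears. Its groups did not overlap, with differences of 1.65 (SE 0.12, adjusted p = 5.01e-06) for anisomycin and 1.10 (SE 0.12, adjusted p = 7.4e-05) for imiquimod.

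Lysine methyltransferases of the elongation factors were uneven. Eef1akmt2 fell with both treatments, at 6.59, 6.23 and 6.32 in anisomycin ears, 6.24, 6.43 and 6.38 in imiquimod ears and 6.76, 6.88 and 6.80 in vehicle ears, with differences of -0.44 with anisomycin and -0.47 with imiquimod. Eef1akmt1 was at 6.76, 7.09 and 6.91 in anisomycin ears, 7.24, 7.30 and 7.36 in imiquimod ears and 6.83, 6.66 and 6.74 in vehicle ears. Only its imiquimod difference was called, at 0.55 (SE 0.09, adjusted p = 0.000591), while for anisomycin the difference was 0.18 (adjusted p = 0.122). Eef1akmt3 was 0.44 with anisomycin, called, and 0.28 with imiquimod, not called. The eEF2 enzyme gene Eef2kmt was -0.16 with anisomycin (adjusted p = 0.0393), a call lost in 6 of the 9 fits that leave out 1 array (adjusted p up to 0.12), and 0.04 with imiquimod. Eef1aknmt, at -0.09 with anisomycin and 0.07 with imiquimod, and the Eif4a3 relative Eif4a3l1, at 0.10 with anisomycin and -0.09 with imiquimod, were called with neither treatment.

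The treatments were then set against each other. Of the 61 genes 8 were higher and 7 lower with anisomycin than with imiquimod, and 46 were not called, beside 20.4% of all genes called in this comparison, 10.8% higher and 9.59% lower. The median difference was -0.0020, against 0.015 over all genes. The arrays of the treatments did not overlap for 34 of the 61 genes, beside 39.3% of all genes. No called difference reached 2-fold. Leaving out anisomycin replicate 1, imiquimod replicate 1 or imiquimod replicate 3 left 4 genes called lower.

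Genes higher with anisomycin included several that had risen with both treatments. Eif1a was 0.65 (SE 0.09, adjusted p = 0.00152) higher, Eef1e1 0.55 (SE 0.12, adjusted p = 0.0122) and Eif2b3 0.53 (SE 0.07, adjusted p = 0.00134), and for each of these 3 genes every anisomycin array exceeded every imiquimod array. Eif6 was 0.45 higher, Eif5 0.41, Eif3d 0.37, Eif4e 0.31 and Eif3a 0.24. The call of Eif5 ended without anisomycin replicate 1 or 2 or any 1 imiquimod array (adjusted p up to 0.127), and that of Eif4e without anisomycin replicate 1 or 2 or imiquimod replicate 1 or 3 (up to 0.0933).

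Genes lower with anisomycin included Eif4ebp1, Eif4ebp2 and Eef2k, which encode inhibitors of eIF4E and of eEF2. Eef2k, with 6.95, 7.25 and 7.74 in anisomycin ears against 7.88, 7.98 and 8.05 in imiquimod ears, differed by -0.66 (SE 0.17, adjusted p = 0.0231), and this call ended without anisomycin replicate 1 or 2 or any 1 imiquimod array (adjusted p up to 0.0795). Eif4ebp2 differed by -0.58 (SE 0.10, adjusted p = 0.00526) and Eif4ebp1 by -0.34 (SE 0.07, adjusted p = 0.00891), with no overlap of the treatments for either gene. Eef1akmt1 differed by -0.38, Eif3i by -0.36, Eif2b5 by -0.32 and Eef2kmt by -0.20. The call of Eef1akmt1 ended without imiquimod replicate 3 (adjusted p = 0.0569), that of Eif2b5 without anisomycin replicate 1 or imiquimod replicate 1 or 2 (up to 0.0615), and that of Eef2kmt in 5 of 9 such fits (up to 0.118). Eef1a2, at 0.39 (95% interval 0.08 to 0.70, adjusted p = 0.0766), was not called between the treatments.

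**Figure D4:**
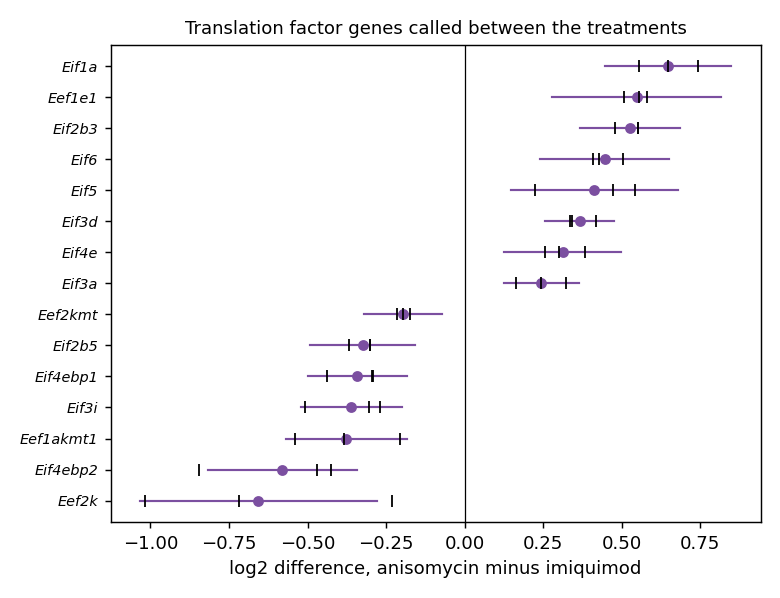
Log2 difference of anisomycin minus imiquimod for the 15 genes called in this comparison (points, with limma's 95% interval), and each anisomycin array minus the imiquimod mean (ticks). Ticks for Eif2b3 and Eef1e1 lie close together, and those for Eef2k run from near the low end of the interval to beyond its high end.

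Partners of these factors were read from lists drawn up for the same pathway. Their counts stand beside 22.3% of all genes called higher and 23.3% called lower with anisomycin, and 20.4% and 22.4% with imiquimod. Among 17 measured genes of termination, ribosome recycling and mRNA binding, 9 rose and 4 fell with anisomycin and 11 rose and 4 fell with imiquimod, with medians of 0.29 for anisomycin and 0.41 for imiquimod. Abce1, for the recycling ATPase, was 1.29 with anisomycin and 0.99 with imiquimod above vehicle, the release factor genes Etf1 1.02 with anisomycin and 0.72 with imiquimod and Gspt1 0.82 with anisomycin and 0.80 with imiquimod, and Pdcd4, for an inhibitor of eIF4A, was at -1.13 with anisomycin and -0.58 with imiquimod, all called. Of 9 measured genes for enzymes that modify the elongation factors, 6 rose and 2 fell with anisomycin and 5 rose and 1 fell with imiquimod, with medians of 0.32 for anisomycin and 0.20 for imiquimod. They include Dohh at 0.87 with anisomycin and 0.87 with imiquimod and Dhps at 0.47 with anisomycin and 0.46 with imiquimod, which together make the hypusine of eIF5A, and Dph2 at 0.89 with anisomycin and 0.58 with imiquimod, which acts in making the diphthamide of eEF2.

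Kinases and phosphatases that act on the factors gave 11 higher and 3 lower of 18 with anisomycin and 9 higher and 3 lower with imiquimod, with medians of 0.29 for anisomycin and 0.21 for imiquimod. Ppp1r15a, whose product directs the phosphatase that removes the phosphate from eIF2 alpha, was 1.22 above vehicle with anisomycin and 0.33 with imiquimod. The gene of its constitutive relative, Ppp1r15b, was at 0.72 with anisomycin and 0.61 with imiquimod. The 3 that fell with anisomycin, named after their values were seen, were Impact, for an inhibitor of GCN2, at -0.50, and Tsc1 at -0.36 and Tsc2 at -0.35, which restrain the kinase complex mTORC1. Of 18 genes that respond to eIF2 phosphorylation, 11 rose and 3 fell with each treatment, with medians of 0.76 for anisomycin and 0.67 for imiquimod, and the cystine transporter gene Slc7a11 was highest at 4.17 with anisomycin and 5.37 with imiquimod. In this list Atf3, a stress transcription factor, was 2.29 above vehicle with anisomycin and called, and 0.51 with imiquimod and not called, and the difference between treatments was 1.77 (SE 0.22, adjusted p = 0.000876). The central factor gene Atf4, named here after its values were seen, was at 0.75 with anisomycin and 0.42 with imiquimod, both called.

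The list of aminoacyl-tRNA synthetases, which charge the tRNAs, also holds scaffold proteins of their complex, such as Aimp2. Of 19 measured genes 17 rose with anisomycin and 19 with imiquimod, none fell, and the medians were 0.58 for anisomycin and 0.67 for imiquimod. Rars was 1.14 with anisomycin and 1.00 with imiquimod above vehicle, Aimp2 1.06 with anisomycin and 0.88 with imiquimod and Hars 0.98 with anisomycin and 1.17 with imiquimod. Mitochondrial translation factors gave 3 higher and 4 lower of 11 with anisomycin and 4 higher and 2 lower with imiquimod, with medians of -0.11 for anisomycin and -0.078 for imiquimod. Beside the shares over all genes, counts this small are no result about the list. Among its genes Tufm was at 0.75 with anisomycin and 1.13 with imiquimod and Guf1 at -0.90 with anisomycin and -0.46 with imiquimod. The difference between these lists was not tested.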

How the data were processed

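Affymetrix Mouse Gene 1.0 ST arrays measured total RNA of whole ear skin, with 3 arrays in each of 3 groups. The deposited values are on the log2 scale and were made by the authors with RMA, per the submitters' processing notes, which normally corrects background, sets the arrays to 1 distribution and summarises each probe set, so a shift of most genes cannot be seen. No version of RMA is given in the labels. Values ran from 2.39 to 13.97. Precision is set by how few arrays there were. Of the rows, 21789 carried 1 symbol in the platform annotation, 1621 several and 12146 none. Genes with no row of a single symbol were not analysed here. For each of 19938 genes the probe set of highest average level over all arrays was kept. limma 3.58.1 in R 4.3.3 was fitted to all 9 arrays with 1 mean per group, followed by empirical Bayes moderation and Benjamini-Hochberg adjustment over all genes, with a threshold of 0.05. An exact permutation test of 3 against 3 arrays cannot go below 0.1.

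Full values are given for the genes of cap binding, eIF2, eIF2B, their kinases, the inhibitors and main elongation factors, and for the most changed members. The rule for partner lists was to name at most 4 called genes per list, by size of change. The genes said above to be named after their values were seen fall outside this rule. The members, lists and rules were chosen with earlier results of these data known. The fitting code was tested on simulated data. Alternatives were another variance prior, a filter leaving out the dimmest 30% of genes, median and stable-rank centring, cyclic loess, the mean of probe sets, array weights, a replicate block, fits of only the groups compared and leaving out each array. Deviations from the group means correlated at -0.20 to 0.20 between same-numbered arrays of different groups. Between arrays of different number the range was -0.24 to 0.25. With 3 arrays per group these values depend on each other, so they cannot show whether the numbers mark a shared animal or day. Promoter windows came from RefSeq tables, matched by symbol and gene ID.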

Additional observations from a re-analysis of the deposited data

Results flagged for a closer look

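Rows that carry several symbols stood outside the comparisons, and on 7 of 11 such rows every treated array lay above every vehicle array. The share of all genes with this pattern was not computed. In either direction, 51.3% of all genes had no overlap with vehicle for anisomycin and 51.8% for imiquimod. Several of the 7 rows share the same genes, so the count is no result about these rows. Rows shared by Eif3j2 and Eif3j1, for the loosely bound eIF3 subunit, were 0.58 and 0.66 higher with anisomycin than with vehicle on the log2 scale. Rows shared by Eif4a3l1 and Eif4a3 were 0.58 and 0.60 higher. Of 4 rows shared by Eif1a and several predicted genes, 3 were 1.29, 1.50 and 1.39 higher, and on the fourth, 0.85 higher, imiquimod and vehicle arrays overlapped. A row shared by Eef1a1 and other genes went the other way, at 9.62, 9.61 and 9.49 in anisomycin ears and 10.25, 10.27 and 10.06 in vehicle ears, a difference of -0.62, with 0.02 for imiquimod. Rows shared by Eif5 and by Eif4ebp3 with other genes were at 0.07 and -0.17 with anisomycin. Which of the named genes gave the signal of a shared row was not tested.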

How the results depend on the processing

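Of 1779 values recomputed for the 33 named genes, 1708 stayed on their side of the threshold. Of the rest, 30 were no longer called, 40 became called and 1 was called in the reverse direction. That one was Eef1a1, at -0.44 for imiquimod against vehicle under cyclic loess, and the cause was not tested. Direction was compared only where the main or the alternative value was called. Uncalled values could change sign, as for Eif2ak1 with anisomycin, at 0.057 and down to -0.068 in the alternatives. The number of genes called lower was 14 for anisomycin and 12 for imiquimod under cyclic loess, where Eef1a1 and Eef2 were called lower. The median of the 61 differences for anisomycin was 0.23 with median centring, 0.096 with centring on genes of stable rank and 0.22 with array weights. For imiquimod it was 0.26 with stable-rank centring and 0.20 with cyclic loess. Centring on genes of stable rank left 37.1% of all called genes higher for anisomycin, against 49.0%, and 36.4% for imiquimod, against 47.7%. Between the treatments, array weights gave 16 genes higher and 16 lower. Leaving out each array gave 28 to 31 genes higher and 6 to 10 lower for anisomycin, with medians of 0.15 to 0.26, 30 to 32 higher and 5 to 6 lower for imiquimod, with medians of 0.27 to 0.34, and 6 to 9 higher and 4 to 9 lower between the treatments. With a replicate block, 29 genes were higher and 7 lower for anisomycin, 30 and 6 for imiquimod, and 8 and 6 between the treatments. Of the 38 genes called for anisomycin, 31 stayed called in every alternative run, as did 32 of 38 for imiquimod and 9 of 15 between the treatments. Saturation of bright probe sets was not tested.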
